A study of Mus musculus with 40 samples.

Results

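Gene expression in mammary basal cells in estrus was compared with that in the other 3 stages of the estrous cycle. The members are the 8 adult libraries labelled as basal, of 40 libraries in the series. They comprise 2 estrus libraries, set against 2 each of proestrus, metestrus and diestrus. All mice were wildtype FVB/N virgin females. Adult mice were 14 to 16 weeks old, and an adult library pooled sorted cells of 2 or 3 mice in the same stage. The 2 pubertal basal libraries used for comparison came from mice of 34 to 36 days, with 4 mice pooled. Basal cells were sorted from digested glands as cells negative for blood and endothelial surface markers, with intermediate EpCAM and high CD49f. By the study's methods each replicate was its own pool of mice, taken earlier (replicate 1) or later (replicate 2) in a stage. Where early and late could not be told apart, the pools were balanced by the number of cells. The p values therefore measure the spread between pools, which includes any difference between early and late in a stage.

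Basal cells form the outer, contractile layer of the mammary ducts, rest on the basement membrane and hold cells able to renew the layer. During the estrous cycle ovarian estrogen and progesterone rise and fall, and part of the epithelium divides. A dividing cell first switches on genes for DNA replication and nucleotide supply, and later genes for the mitotic kinases, spindle, kinetochores and cytokinesis. Transcripts of these genes are scarce in resting cells, so they report on how many cells are in the cycle. In sorted bulk RNA, more dividing cells and more transcript per cell cannot be told apart.

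The basal libraries held between 12568238 and 20876762 counts in genes (median 16762483). Basal keratins were abundant in every library. Krt14 had 7535 and 5957 CPM in estrus and 5176 to 7976 CPM in the other stages, where CPM is the count scaled to a common library size with TMM factors, which correct for a few genes taking a large share of a library. The summed CPM of 21 luminal markers was 2213 and 2164 in estrus and 1807 to 2269 in the other stages, that of 18 leukocyte markers was 24.1 and 28.5 against 18.6 to 39.1, and that of 13 endothelial and pericyte markers was 18.6 and 20.4 against 18.2 to 55.1. Of the 10 endothelial and pericyte markers tested, 9 had negative fold changes, against 6222 of all 12122 genes tested. The part of these cells in the results below was not tested. Among the defining leukocyte genes, Ptprc was at 0 in both estrus libraries and reached at most 0.0635 CPM elsewhere. None of the tested markers of luminal cells, fibroblasts, endothelium, leukocytes, adipocytes or cornified epidermis was called.

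Of 12122 genes tested, 146 were called higher and 1 lower in basal estrus when set against the average of proestrus, metestrus and diestrus (edgeR quasi-likelihood test, adjusted p under 0.05). The 146 genes make 1.2% of the genes tested and the gene called lower 0.00825%. A total of 102 of the 146 were on the 13 cell cycle lists, which hold 429 genes of the count table. Of these 429 members, 329 passed the filter on low counts and 100 did not. Calls made up 31% of the tested cell cycle genes and 0.382% of the 11793 other tested genes. A total of 41 of the 329 exceeded 1 CPM in the 2 estrus libraries only and so had to differ, and 36 of these 41 were called. A further 13 of the 102 called genes passed only by estrus and other libraries together. Among these 13 were Knstrn, Ube2c, Cdca5, Pclaf, Cep55 and Ccnb1, which would not have been tested without estrus. The other stages alone let in 53 of the 102. With the filter applied to the 6 other libraries alone, an alternative added after the data were seen, 55 genes were called and 42 of them were on the cell cycle lists. Over the 329 genes the median log2 fold change was 0.88, against -0.0080 over all tested genes. Both estrus libraries lay above all 6 other libraries for 146 of the 329 genes, whereas this held for 5.69% of all genes tested, and both lay below for 4 (3.23% of all genes). At an unadjusted p under 0.05, 188 of the 329 were higher and 4 lower, against 7.94% and 3.89% of all genes. The 2 estrus libraries were unequal. Estrus replicate 1 lay above all 6 other libraries for 227 of the 329 genes and estrus replicate 2 for 151. Among the 11793 tested genes on no cell cycle list these counts were 2008 and 1343.

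**Figure D1:**
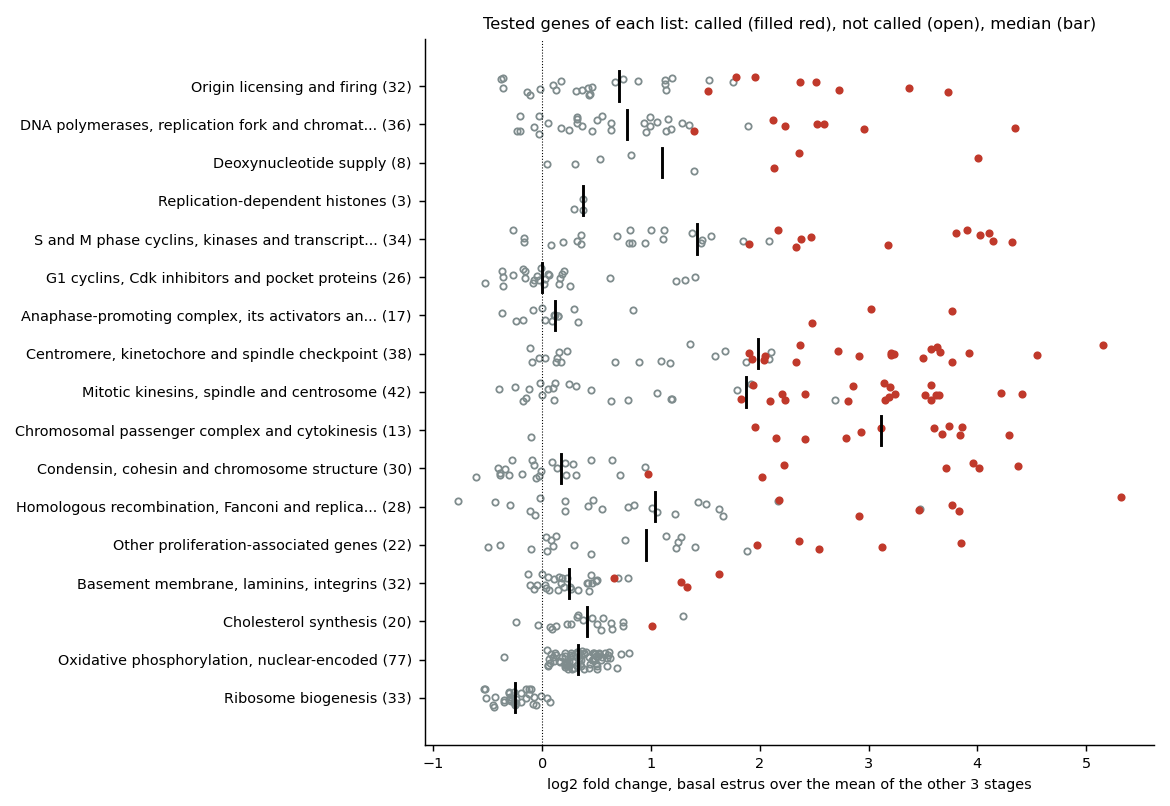
The log2 fold change of basal estrus over the mean of the other 3 stages is plotted for every tested gene of the 13 cell cycle lists and of 4 other lists, with the number tested in parentheses. Filled red points are called genes, open points are not called, and bars are list medians. The median lies at 3.11 for the chromosomal passenger and cytokinesis list and at 0.0016 for the G1 cyclins and inhibitors.

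The genes with the smallest adjusted p were Cdk1, Kif2c, Knstrn, Top2a and Kif20a (0.00945 each). Cdk1 encodes the kinase that drives entry into mitosis and lies on chromosome 10 from 69335146 to 69352938 (GRCm38). It had 30.1 and 9.58 CPM in estrus replicates 1 and 2, against 0.882 and 2.07 CPM in proestrus, 1.71 and 1.06 CPM in metestrus and 0.809 and 0.952 CPM in diestrus. Both estrus libraries were above the 6 others, and its log2 fold change was 4.02 (SE 0.40). Top2a, a topoisomerase that untangles sister chromatids, had 62.9 and 15.7 CPM in estrus, against 3.11 and 4.38 CPM in proestrus, 5.39 and 2.88 CPM in metestrus and 1.52 and 1.97 CPM in diestrus. Kif2c, a kinesin that depolymerizes microtubules at kinetochores, had 9.43 and 3.43 CPM in estrus and 0.104 to 0.461 CPM elsewhere. It exceeded 1 CPM in the 2 estrus libraries only, so that its difference was fixed by the filter. Knstrn encodes a kinetochore and spindle protein. Its 2 estrus values were nearly equal, at 5.89 and 5.86 CPM, and the 6 other libraries had 0.152 to 1.37 CPM. Per length these transcripts were still scarce. Cdk1 averaged 4.02 RPKM in estrus and 0.253 RPKM in the other stages, whereas the basal keratin gene Krt14 averaged 3837 and 3549 RPKM.

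The starts of Cdk1, Kif2c, Knstrn and Top2a are shown because late cell cycle genes are known to share promoter elements. The CHR element and the CCAAT box are common in genes expressed before and during mitosis, and E2F sites in genes of DNA replication. Each RefSeq window (GRCm38.p6) runs from 250 bases before to 50 bases after the start. Capitals mark TTTGAA (CHR), CCAAT, and the E2F words TTTCCCGC, TTTGGCGC, TTTCGCGC and TTTGCCGC, on either strand.
Cdk1: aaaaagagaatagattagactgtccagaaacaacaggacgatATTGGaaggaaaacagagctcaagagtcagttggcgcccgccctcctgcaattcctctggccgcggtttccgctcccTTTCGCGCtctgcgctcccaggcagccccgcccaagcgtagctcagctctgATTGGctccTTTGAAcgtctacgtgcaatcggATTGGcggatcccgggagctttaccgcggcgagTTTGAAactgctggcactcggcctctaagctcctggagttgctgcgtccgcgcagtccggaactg
Kif2c: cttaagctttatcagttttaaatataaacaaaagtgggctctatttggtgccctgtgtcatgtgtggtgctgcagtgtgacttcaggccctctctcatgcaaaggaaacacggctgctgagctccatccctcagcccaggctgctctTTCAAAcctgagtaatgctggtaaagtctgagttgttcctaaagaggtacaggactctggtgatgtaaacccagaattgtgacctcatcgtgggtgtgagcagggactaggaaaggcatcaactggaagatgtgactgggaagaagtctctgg
Knstrn: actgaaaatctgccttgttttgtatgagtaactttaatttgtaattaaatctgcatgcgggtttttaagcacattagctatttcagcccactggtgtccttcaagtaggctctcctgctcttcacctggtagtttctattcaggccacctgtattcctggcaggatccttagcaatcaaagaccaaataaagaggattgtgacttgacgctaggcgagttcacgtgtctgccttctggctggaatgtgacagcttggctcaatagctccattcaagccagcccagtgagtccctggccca
Top2a: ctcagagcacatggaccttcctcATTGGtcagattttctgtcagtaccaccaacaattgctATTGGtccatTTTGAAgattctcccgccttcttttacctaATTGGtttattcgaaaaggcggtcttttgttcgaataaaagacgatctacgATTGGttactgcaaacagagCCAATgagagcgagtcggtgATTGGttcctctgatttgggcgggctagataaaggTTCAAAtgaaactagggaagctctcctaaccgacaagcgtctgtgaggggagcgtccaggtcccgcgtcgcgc
The windows lie at chr10:69352863-69353162 for Cdk1, chr4:117178723-117179022 for Kif2c and chr11:99024140-99024439 for Top2a on the minus strand, and at chr2:118813753-118814052 for Knstrn on the plus strand. The Cdk1 window held 2 CHR words, 3 CCAAT words and 1 E2F word, and the Top2a window 2 CHR words and 6 CCAAT words. The Kif2c window held 1 CHR word, but its start lies 3867 bases inside the annotated gene, and the Knstrn window held none of the words. Of the 102 called cell cycle genes, 85 had an entry, the first listed being used for each gene. A CHR word was present in 48.2% of these 85 windows, in 25.5% of the windows of 184 tested cell cycle genes that were not called, and in 18.1% of all 27025 windows. CCAAT was present in 68.2%, 56.5% and 37.9% of the same windows. For CHR and CCAAT together the shares were 40.0%, 17.4% and 7.12%. The E2F words were present in 12.9%, 20.7% and 2.32%. Words that share bases were each counted. The 27025 windows include genes not expressed in these cells. Shares over the tested genes are void and not given, since 9411 of the 12122 had a window, under 80%. These are matches of letters and not mapped binding sites.

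Genes of mitosis and cell division come first. In the chromosomal passenger and cytokinesis list, 12 of 13 tested genes were called, all higher. The exception was Arhgef39, with a log2 fold change of -0.10. Of the 12 calls, 1 passed the filter through the estrus libraries alone. The summed CPM of this list was 180.9 and 71.5 in estrus, against 20.6 and 33.7 in proestrus, 34.2 and 29.2 in metestrus and 17.9 and 19.4 in diestrus. Incenp, the scaffold of the passenger complex, had 21.6 and 9.93 CPM in estrus and 2.83 to 4.65 CPM elsewhere. Anln encodes anillin of the contractile ring, and its log2 fold change was 3.60 (SE 0.45, edgeR adjusted p = 0.0104). Iqgap3, a scaffold protein linked to proliferation, had 16.1 and 5.75 CPM in estrus and 0.0505 to 2.23 CPM elsewhere. Cep55, required for the final cut between daughter cells, had a log2 fold change of 3.84 (SE 0.51).

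Among mitotic kinesins and spindle genes, 20 of 42 tested genes were called, and among centromere and kinetochore genes 19 of 38. Of these calls, 7 of the 20 and 10 of the 19 passed the filter through the estrus libraries alone, so that their difference was fixed by the filter. No member of either list was called lower. Kif20a, a kinesin of the central spindle, had 9.75 and 5.28 CPM in estrus and 0.751 to 1.54 CPM elsewhere. Tpx2 and Spag5 act in spindle assembly. Tpx2 had 18.9 and 6.91 CPM in estrus and 0.707 to 2.77 CPM elsewhere. The kinesin gene Kif18b reached a log2 fold change of 4.21 (SE 0.56). Kntc1 and Dsn1 encode parts of the kinetochore. Their log2 fold changes were 3.77 and 2.04, and Dsn1 was the more even between the estrus pools, at 6.01 and 4.58 CPM, with 0.876 to 1.98 CPM elsewhere. Of the 17 genes of the anaphase-promoting complex and its partners only Espl1, Ube2c and Cdc20 were called. They encode separase, an E2 enzyme and an activator, whereas the 14 others, core subunits among them, had log2 fold changes from -0.37 to 0.83 and were not called. Espl1 passed the filter through the estrus libraries alone, so that its difference was fixed by the filter.

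Of the cyclins and kinases of S and M phase 12 of 34 were called, 4 of the 12 having passed the filter through the estrus libraries alone. Ccna2 (cyclin A2) had 20.3 and 7.37 CPM in estrus and 0.505 to 2.35 CPM elsewhere. Ccnb1 (cyclin B1) had 10.9 and 3.02 CPM in estrus and 0.156 to 1.63 CPM elsewhere, the highest of these in metestrus replicate 1. None of the 26 tested genes of the G1 list was called, and the median log2 fold change of this list was 0.0016. Ccnd1 (cyclin D1) had 120.2 and 78.8 CPM in estrus and 51.2 to 79.5 CPM elsewhere, so the groups overlapped. Rbl1, a pocket protein induced late in G1, had 7.15 and 3.54 CPM in estrus and 1.37 to 2.63 CPM elsewhere (edgeR adjusted p = 0.0936).

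Replication genes held calls as well. In origin licensing and firing 8 of 32 tested genes were called, in the replication fork list 7 of 36 and in deoxynucleotide supply 3 of 8. Of the 8, 7 and 3 calls, 2, 1 and 1 passed the filter through the estrus libraries alone. Whether these shares differ from those of the mitotic lists was not tested. Mcm10 and Cdc45, which act at firing origins, had log2 fold changes of 2.51 (SE 0.36) and 2.72 (SE 0.41). Lig1, the ligase that joins lagging strand fragments, had 25.3 and 10.7 CPM in estrus and 2.63 to 7.97 CPM elsewhere, with both proestrus libraries the highest of the 6. The PCNA partner Pclaf had 24.1 and 6.56 CPM in estrus and 0.188 to 2.95 CPM elsewhere. Rrm2 and Rrm1 are the subunits of ribonucleotide reductase. Rrm2 had 36.9 and 12.6 CPM in estrus and 2.88 to 7.05 CPM elsewhere. Rrm1, which is less tied to S phase, had 83.9 and 46.7 CPM in estrus and 29.8 to 44.8 CPM elsewhere, and was not called (edgeR adjusted p = 0.13). Replication-dependent histones could not be judged, since 54 of 57 did not pass the filter and their transcripts mostly lack the poly(A) tail by which the RNA was selected.

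Of 30 tested chromosome structure genes 7 were called. They were Top2a, Mki67, the cohesin regulator gene Cdca5 (sororin) and the condensin genes Ncapg, Ncaph, Ncapd2 and Smc2. Of the 7, only Ncapg passed the filter through the estrus libraries alone. Mki67, the proliferation marker Ki-67, had 28.6 and 3.31 CPM in estrus, against 0.778 and 0.645 CPM in proestrus, 2.91 and 1.5 CPM in metestrus and 0.354 and 0.888 CPM in diestrus. Estrus replicate 2 thus exceeded metestrus replicate 1 only slightly for this gene. In the list of recombination and Fanconi genes 6 of 28 were called, including Brca1 and Fanca, which act in repair of damaged replication forks. All but 1 of the 6, Brca1 and Fanca among the 5, passed the filter through the estrus libraries alone, so that their difference was fixed by the filter. Fanca had 3.86 and 1.39 CPM in estrus and was at 0 in both metestrus libraries.

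**Figure D2:**
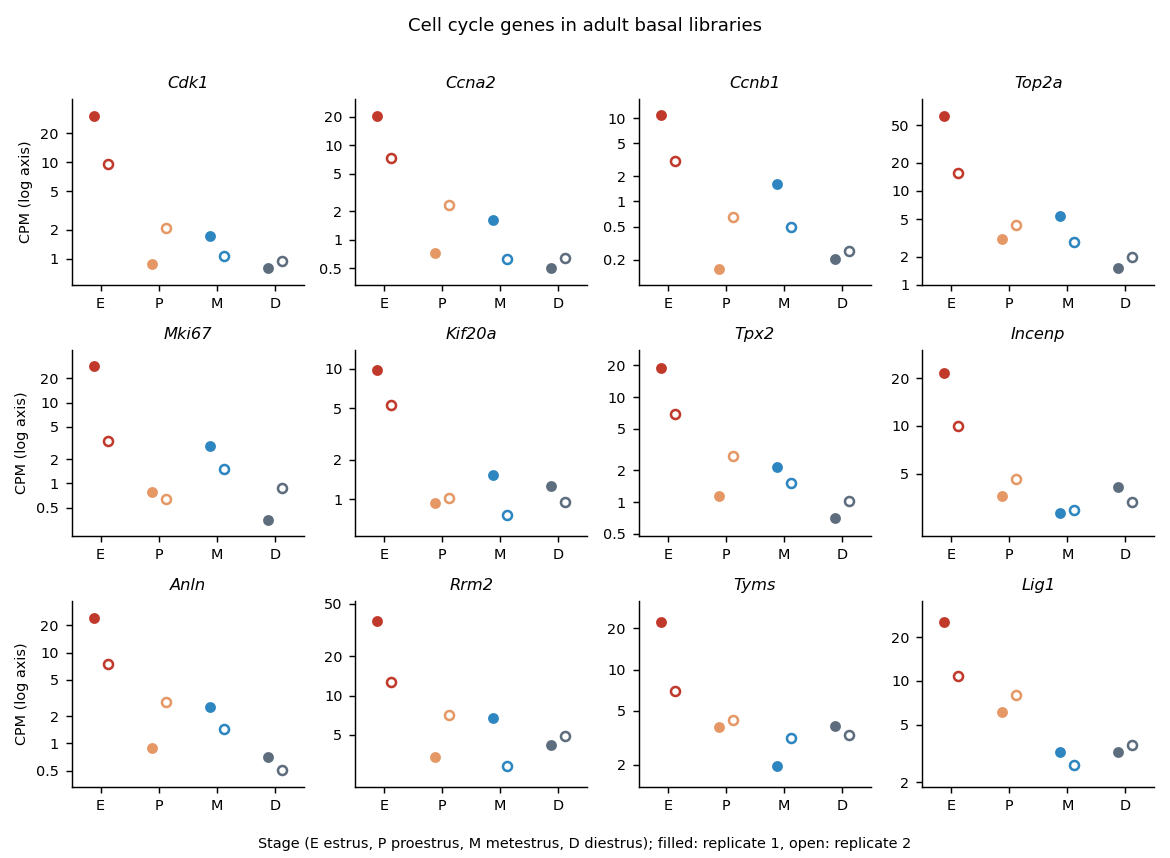
CPM of 12 called cell cycle genes in each of the 8 adult basal libraries, on a log axis with its own range for each gene. Both estrus points (E) lie above all others in each panel, and the filled point of estrus replicate 1 is the higher, as for Cdk1 with 30.1 and 9.58 CPM.

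Estrus replicate 1 exceeded estrus replicate 2 for 101 of the 102 called cell cycle genes, with a median ratio of 2.78. These genes were selected on the same libraries, and both estrus libraries lay above all 6 others for 101 of the 102, the exception being the helicase gene Mcm2 with 26.1 and 9.52 CPM in estrus and up to 9.54 CPM elsewhere. For estrus replicate 2 the median ratio to the highest of the 6 was 2.13, against 6.27 for estrus replicate 1. Early against late estrus and other differences between the estrus pools cannot be told apart here. Among the 6 others the highest value fell in proestrus replicate 2 for 59 of the 102 genes and in metestrus replicate 1 for 37. For all 429 genes of the lists together the summed CPM was 9218 in estrus replicate 1, whereas the 6884 of estrus replicate 2 was within the 6520 to 7074 of the other stages. The median log2 ratio to the mean of the 6 other libraries (CPM + 0.5) over the 329 tested genes was 1.11 in estrus replicate 1 and 0.30 in estrus replicate 2, against -0.14 to 0.14 in the others.

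The calls depended on single libraries. Without estrus replicate 1 no gene was called (edgeR, 588 genes at an unadjusted p under 0.05), and Cdk1 had a log2 fold change of 2.98 (edgeR adjusted p = 0.17). All 66 of the 102 genes that still passed the filter stayed positive, with a median of 1.73. The 102 genes were chosen on these same libraries, so a positive sign was nearly fixed in advance. Without estrus replicate 2, 104 cell cycle genes and 135 others were called. Without diestrus replicate 1 or 2 no gene was called either, at smallest adjusted p values of 0.0533 and 0.0560. There all 102 genes, again chosen on the same libraries, stayed positive, with medians of 3.16 and 3.10. In the other cases 51 to 166 genes were called, the fewest without metestrus replicate 2. With all 8 libraries DESeq2 called 267 genes higher and 15 lower.

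**Figure D3:**
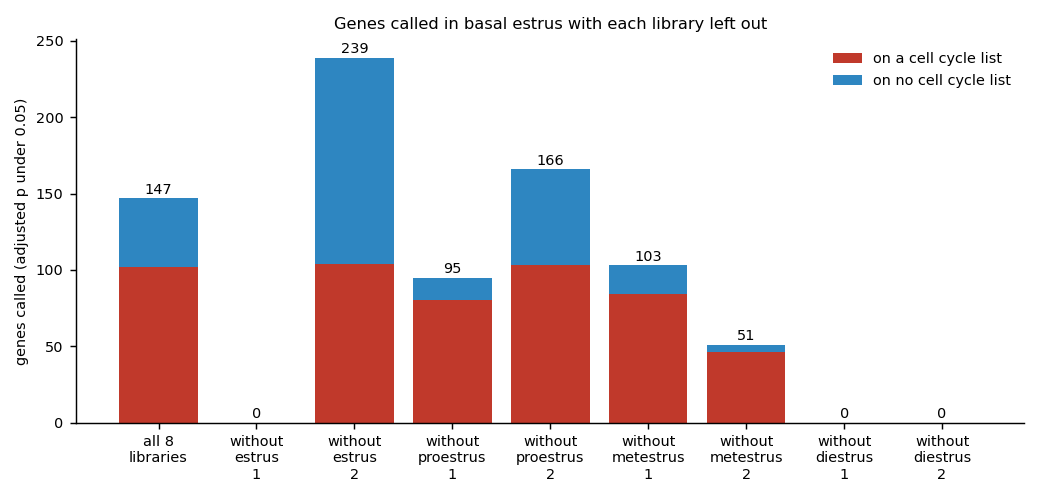
Number of genes called in basal estrus against the mean of the other stages with all 8 libraries and with each library left out. Red is the part on the cell cycle lists and blue the rest, and the count falls to 0 without estrus replicate 1, diestrus replicate 1 or diestrus replicate 2.

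Basal estrus was also set against each stage on its own. The median over the 329 genes was 0.78 against proestrus, 0.99 against metestrus and 0.88 against diestrus, comparisons that share the 2 estrus libraries. Cdk1 had log2 fold changes of 3.73, 3.86 and 4.49, with edgeR adjusted p values of 0.132, 0.0971 and 0.0696. No gene was called in any of the 3 (0%) by edgeR. For proestrus edgeR had 761 genes at an unadjusted p under 0.05 and DESeq2 called 104. For metestrus these counts were 2785 and 658, and for diestrus 1279 and 201. With an estrus library left out, edgeR made calls in all 3 comparisons without estrus replicate 2 and in none of them without estrus replicate 1. For diestrus it called 38 without proestrus replicate 1 and 39 without proestrus replicate 2.

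After the cell cycle genes were set aside, 45 called genes remained, 44 higher and 1 lower. The p values are adjusted over all genes, the cell cycle genes included. When the cell cycle genes were left out before the fit, none of the remaining 11798 genes was called, with a smallest adjusted p of 0.0614 (edgeR). In that fit 1271 genes had an unadjusted p below 0.05. All 44 were among them, but they had been chosen on these same libraries, so this was nearly fixed in advance. DESeq2 with all genes called 149 genes on no cell cycle list. The 44 genes called higher and the 102 cell cycle genes were each chosen on these libraries, and a difference between the sets was not tested. The median log2 fold change was 1.51 for the 44 and 3.12 for the 102. The median CPM of the 44 was 20 in estrus and 7.17 in the other stages, against 6.42 and 0.826 for the 102. With the filter on the 6 other libraries, 33 of the 44 and 53 of the 102 were still tested. Their median log2 fold changes were 1.23 and 2.38. Estrus replicate 1 was the higher estrus library for 43 of the 44, with a median ratio of 1.83, and proestrus replicate 2 was the highest of the 6 others for 31. In all, 5 of the 44 and 36 of the 102 passed the filter through the estrus libraries alone, which favors large fold changes. The lists do not hold every gene of cell division. Arhgap19 encodes a GTPase regulator of cell division, and Kifc5b is a near copy of the mitotic kinesin gene Kifc1, so that its reads are uncertain.

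Genes of the extracellular matrix were among the 44. In the list of basement membrane, laminins and integrins 4 of 32 tested genes were called, all higher, and 28 of the 32 fold changes were above 0. Over all 12122 tested genes 1.21% were called and 5900 fold changes were above 0. Both estrus libraries lay above the 6 others for 12 of the 32, against 5.69% of all genes tested. By summed CPM of the list estrus replicate 2 was not the lower of the pair, with 18400 and 19120 in estrus, against 13650 to 16660 elsewhere. In each of the 4 called genes, however, estrus replicate 2 was the lower. Lama1, the laminin alpha-1 chain, had 187.4 and 104.5 CPM in estrus, against 60.0 and 85.6 CPM in proestrus, 51.1 and 53.1 CPM in metestrus and 63.0 and 40.2 CPM in diestrus. The fibulin genes Fbln1 and Fbln2 encode proteins that bind laminin and elastic fibers. Fbln1 had 73.5 and 29.1 CPM in estrus and 11.2 to 25.2 CPM elsewhere. Fbln2 had 558.4 and 338.4 CPM in estrus and 142.8 to 271.5 CPM elsewhere, the highest of these in diestrus replicate 1. Agrn (agrin, a heparan sulfate proteoglycan) rose by the least of the 4, with 692.2 and 588.6 CPM in estrus and 333.4 to 511.5 CPM elsewhere.

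Several members of this list lay above the 6 others without being called. Col4a1, a chain of the main basement membrane collagen, had 2070 and 1852 CPM in estrus and 942.1 to 1386 CPM elsewhere (edgeR adjusted p = 0.0857). Col7a1, the collagen of anchoring fibrils, had 402.7 and 355.2 CPM in estrus and 144.3 to 261.1 CPM elsewhere (edgeR adjusted p = 0.0836). Both genes were picked out with their values in view. Beyond the list, further called genes encode matrix or matrix-modifying proteins. Col11a1, a fibrillar collagen chain, had 59.2 and 30.3 CPM in estrus and 11.2 to 24.9 CPM elsewhere. Frem2, of the Fraser complex at the basement membrane, had 19.5 and 11.2 CPM in estrus and 4.29 to 9.63 CPM elsewhere. Vwa2 had 31.5 and 21.3 CPM in estrus, against 17.6 and 20.1 CPM in proestrus and 9.84 to 12.7 CPM in metestrus and diestrus, so that estrus replicate 2 was close to proestrus. Emid1 and the protease gene Adamts7 had log2 fold changes of 1.22 (SE 0.24) and 1.54 (SE 0.27). In the list of fibrillar matrix and remodelling genes, which does not hold Col11a1, none of 24 was called and the signs were mixed (13 positive, 11 negative). Postn had 1351 and 1444 CPM in estrus and 1575 to 2974 CPM elsewhere (edgeR adjusted p = 0.218).

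The remaining named genes have varied functions. Ucp2, an uncoupling protein of the mitochondrial membrane, had 916.6 and 625.9 CPM in estrus and 334.6 to 484.5 CPM elsewhere. Of 20 tested genes of the cholesterol list, 18 had positive fold changes (median 0.42) and 6 had both estrus libraries above the others. Of all 12122 tested genes, 5900 had positive fold changes and 5.69% had both estrus libraries above the others. The mitochondrial enzyme genes Eci2 and Sardh had log2 fold changes of 0.93 (SE 0.18) and 1.06 (SE 0.20). Serpinb11, a serpin gene, had 53.4 and 11.2 CPM in estrus and 0.188 to 4.88 CPM elsewhere. Them5, a mitochondrial thioesterase gene, had 25.5 and 7.72 CPM in estrus and 0.438 to 3.18 CPM elsewhere. Adh7 and Glb1l2 had log2 fold changes of 2.47 (SE 0.42) and 2.31 (SE 0.39). Selenoh, which encodes a nuclear selenoprotein, had 12.6 and 5.63 CPM in estrus and 1.56 to 3.41 CPM elsewhere. Ramp1, a co-receptor for the peptide CGRP, and the guanine nucleotide exchange factor gene Arhgef4 had log2 fold changes of 1.48 and 0.89. The amino acid transporter gene Slc7a8 was the only gene of these whose groups overlapped, with 39.2 and 26.2 CPM in estrus and 8.31 to 28.2 CPM elsewhere.

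**Figure D4:**
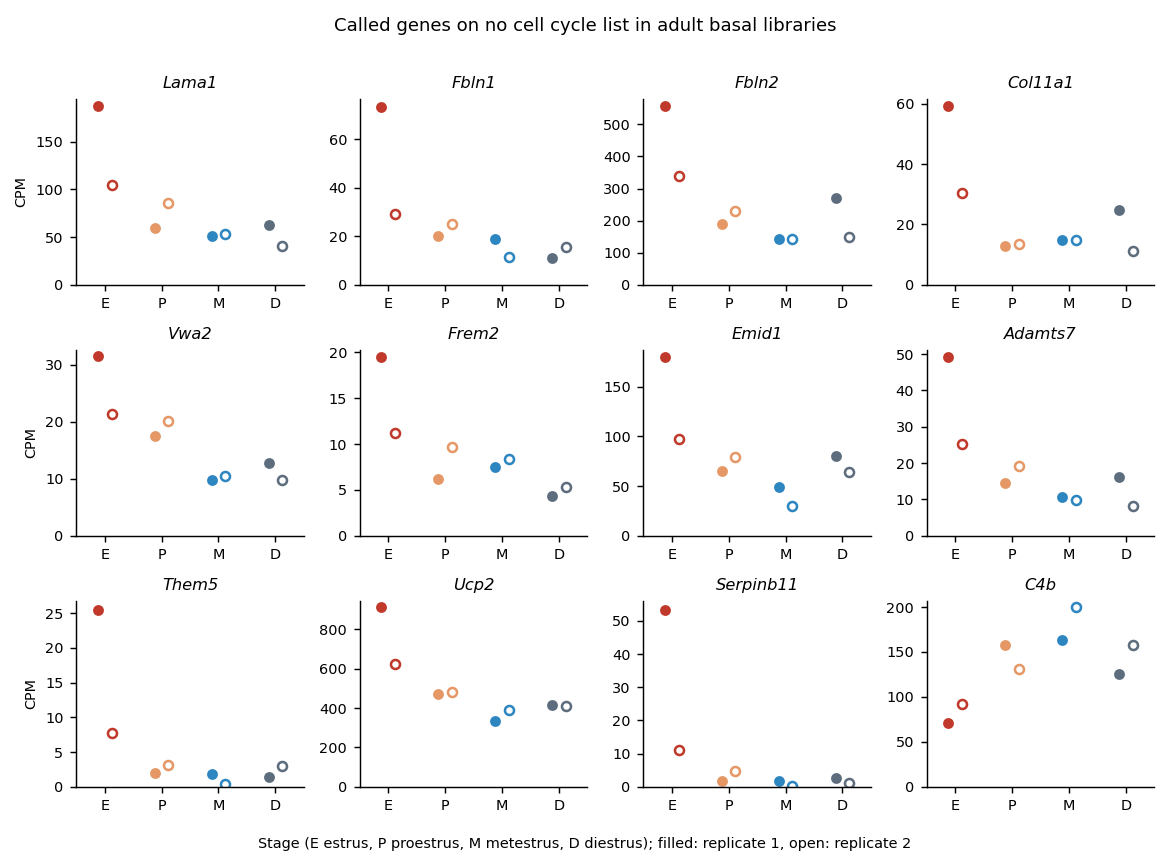
CPM of 12 called genes on no cell cycle list in each of the 8 adult basal libraries, on linear axes from 0. Estrus points (E) lie above all others in 11 panels and below all others for C4b, with 70.6 and 91.8 CPM.

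The 1 gene called lower was C4b, a component of the complement cascade. It had 70.6 and 91.8 CPM in estrus, against 157.3 and 131 CPM in proestrus, 163.5 and 200.4 CPM in metestrus and 125.2 and 158.2 CPM in diestrus, and its log2 fold change was -0.93 (SE 0.17, edgeR adjusted p = 0.033). Of 10 tested complement genes 9 had negative fold changes, against 6222 of all 12122 tested genes. Next by p among lower genes of at least 2 on the log2 CPM scale was Btg2, an antiproliferative gene, with 47.2 and 57.2 CPM in estrus and 71.0 to 133.2 CPM elsewhere (edgeR adjusted p = 0.068). Malat1, a nuclear noncoding RNA, had 195.6 and 193.8 CPM in estrus and 224.3 to 821.0 CPM elsewhere (edgeR adjusted p = 0.145).

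Other lists moved little or in parts. Over all 12122 tested genes 5900 fold changes were positive and 6222 negative. Of 77 nuclear genes of oxidative phosphorylation 76 had a positive fold change (median 0.33), but none was called. Estrus replicate 1 was above the 6 other libraries for 71 of the 77 and estrus replicate 2 for 2. Among the 11793 tested genes on no cell cycle list these counts were 2008 and 1343. Of 33 ribosome biogenesis genes 31 had a negative fold change (median -0.25) and none was called. Contractile genes, basal keratins and lineage factors, steroid and prolactin receptors, and the lists of EGF and FGF, Wnt, Notch and Hippo, TGF-beta and IGF genes held no call. Acta2, the smooth muscle actin of contractile basal cells, had 5491 and 4007 CPM in estrus and 2658 to 6028 CPM elsewhere.

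Luminal cells of the same pools of mice were fitted in the same way. No gene of 12306 was called there (0%) by edgeR, where 1076 had an unadjusted p below 0.05, while DESeq2 called 145 higher and 34 lower. Of 362 cell cycle genes tested in luminal cells 202 were higher at an unadjusted p under 0.05, against 5.71% of all genes, and 5 were lower, against 3.03%. Any of the 362 that exceeded 1 CPM in the 2 luminal estrus libraries only had to be higher, and such genes were not counted. With a luminal library left out, edgeR made calls only without luminal estrus replicate 2 or luminal diestrus replicate 2, and not without luminal estrus replicate 1. Over these 362 genes the median log2 fold change was 0.63. Of the 102 genes, which were chosen for their change in basal cells, 100 were tested in luminal cells and 99 of these had a positive fold change there, with a median log2 fold change of 1.79. Cdk1 had a log2 fold change of 2.40 in luminal cells (edgeR adjusted p = 0.0868). Luminal estrus replicate 1 was also the higher of its pair, with a summed cell cycle CPM of 9171 and 7502 in estrus and 6998 to 7682 elsewhere. The basal and luminal libraries of a pool share their mice.

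**Figure D5:**
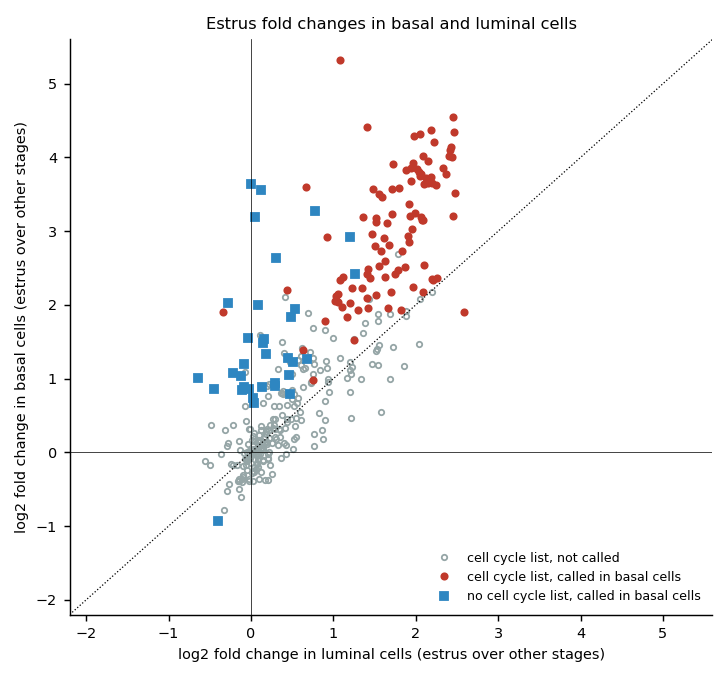
Log2 fold change of estrus over the mean of the other 3 stages in basal cells (vertical) and luminal cells (horizontal), for cell cycle list genes and called genes tested in both. The dotted line marks equal fold changes. The red points were chosen by their basal values. Their luminal values, with a median of 1.79, come from the same pools of mice and so are not fully independent of that choice.

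No estrus effect differed between basal and luminal cells past the threshold (0% of 13193 genes by edgeR, 737 at an unadjusted p under 0.05). The smallest adjusted p was 0.102, DESeq2 called 18 genes, and the fit with the pools of mice as a block also called 0. Over 373 cell cycle genes, called or not, 55 had a larger and 6 a smaller effect in basal cells at an unadjusted p below 0.05, against 3.65% and 1.94% of all genes, and the median difference was 0.27. With a library left out, calls appeared without basal estrus replicate 2 but not without basal estrus replicate 1. They also appeared without luminal metestrus replicate 1, basal diestrus replicate 1 or either luminal diestrus replicate. Of the 44 other genes called in basal cells, 33 were tested in luminal cells, where 22 had a positive fold change and 7 were higher at an unadjusted p under 0.05. Since they were chosen for their change in basal cells, no comparison of size was made for them as a group. Lama1 had log2 fold changes of 1.33 in basal and 0.18 in luminal cells, a difference of 1.15 (edgeR adjusted p = 0.762). The difference of smallest p was that of Ano9, of the anoctamin family, at 3.66 (SE 0.55, edgeR adjusted p = 0.102). It had 1.14 and 0.987 CPM in basal estrus and at most 0.184 CPM in the other basal libraries, and 13.5 and 9.86 CPM in luminal estrus and 9.41 to 14.0 CPM in the other luminal libraries. In the fit of basal libraries Ano9 passed the filter through estrus alone, with counts close to the limit of 1 CPM. Next was Cbr2, a carbonyl reductase gene, with log2 fold changes of 0.30 in basal and -1.36 in luminal cells. Gbp2, an interferon-induced GTPase gene, went the other way, with -0.54 in basal and 1.02 in luminal cells (edgeR adjusted p = 0.12 for the difference). For 20 cholesterol genes the median difference was 0.86, and 15 of them had an unadjusted p under 0.05. Their summed CPM was 878.6 and 737.6 in basal estrus and 566.0 to 709.5 in the other basal libraries, but 973.1 and 1079 in luminal estrus and 892.4 to 1769 in the other luminal libraries.

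Pubertal basal cells, sequenced in another run, give a scale for the cell cycle genes. On TMM factors shared by the basal libraries the 2 pubertal libraries had 51.8 and 38.9 CPM of Cdk1, against 30.9 and 9.72 CPM in estrus. Both pubertal libraries exceeded both estrus libraries for 209 of the 329 tested cell cycle genes, against 33.2% of all genes, and both fell below for 25, against 38.2%. Run and age cannot be told apart here, so no test was made.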

How the data were processed

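The 8 adult basal libraries and, for comparison, the 8 adult luminal and 2 pubertal basal libraries were used. The authors deposited raw read counts per gene, made from single-end poly(A)-selected stranded reads. By the submitters' processing notes these were aligned to GRCm38 with TopHat2 2.1 and Bowtie 1.1.0 and counted with HTSeq. The deposited log2 tables are these counts rescaled and were not used. Symbols came from GENCODE M21 (24726 of 25044 IDs) and promoter sequences from RefSeq, matched by symbol.

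Counts were fitted with edgeR 4.0.16 (R 4.3.3, quasi-likelihood F-test, legacy=TRUE, TMM factors) with 4 stage groups. Genes above 1 CPM in at least 2 libraries were tested, and the contrast was estrus minus the mean of the other 3 stages. A call is a Benjamini-Hochberg adjusted p under 0.05 over all tested genes. The interaction used 16 libraries. Alternatives were DESeq2 1.42.0, RLE factors, other filters, the newer quasi-likelihood procedure, a fit of all 32 adult libraries, the replicate number as a block, and each library left out. Of these, the filters on the 6 other libraries and on mean CPM and the fit without cell cycle genes were added after the data were seen. The procedure was run on simulated counts with a common spread for all genes and equal increases in both estrus libraries. The estrus libraries here were unequal, so that run does not measure how reliable these calls are. Basal and luminal libraries with 1 number share a pool of mice by the study's sample table (correlations of their replicate differences: 0.19, 0.194, -0.10 and 0.219).

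The members and gene lists were chosen with earlier results of these data known. Named genes are the 4 of smallest adjusted p in each cell cycle list, the 20 largest called increases outside them at a log2 CPM of at least 2, lower genes by p, genes the study names, the 2 of smallest p in other lists, and 5 interaction genes per direction, without predicted genes. Other genes are named as list members or after their values were seen.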

Additional observations from a re-analysis of the deposited data

Results flagged for a closer look

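Among the 6 basal libraries outside estrus, 181 sets of values (the named genes, the list sums and the library totals) were searched for a library far from the other 5, and 18 were found, where chance gives about 1 in 20. Proestrus replicate 2 was the highest for Pclaf (2.95 CPM, the others at most 0.762), Cdca5 (1.06, at most 0.313), Cdc45 (3.09, at most 1.71), Chtf18 (0.922, at most 0.404), Tk1 (0.922, at most 0.317), Fanca (0.461, at most 0.156) and Krt15 (200.8, at most 122.7). It was the highest for the summed CPM of cholesterol synthesis (709.5, at most 605.6), and it was the lowest for Morc3 (27.3, at least 44.2) and for the sum of condensin, cohesin and chromosome structure (1370, at least 1846). Metestrus replicate 1 was the highest for Knstrn (1.37, at most 0.553) and Ccnb1 (1.63, at most 0.645). Metestrus replicate 2 was the highest for Serping1 (69.0, at most 49.5) and the lowest for Parp12 (31.7, at least 37.9). Diestrus replicate 1 was the highest for Col11a1 (24.9, at most 15.01), Hist1h2bc (3.54, at most 1.84) and the sum of origin licensing and firing (486.5, at most 440.1). Diestrus replicate 2 was the highest for the sum of cornifying epidermis markers (37.6, at most 21.7), next to 36.5 and 19.4 in estrus.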

How the results depend on the processing

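None of the 136 named genes reversed a called direction over 2323 values under the alternatives, of which 1902 kept their side of the threshold, 334 lost it and 87 gained it. Of the 136, 68 were called, on libraries that the alternatives reuse, so that no reversal was nearly fixed in advance. Sign changes of uncalled genes are counted as kept. Krt14, for example, had log2 fold changes of 0.116 with all 8 libraries and -0.0616 without estrus replicate 1. The count of called genes moved most. Against the main 147 (102 on cell cycle lists, 45 on none), DESeq2 called 282 (149 on none), no filter 708 (200 and 508), and the joint fit of 32 libraries 232 (87 on none). The replicate block called 82 (67 and 15). Replicate numbers did not pair the basal samples, with correlations between stages of -0.306 to 0.304. After the data were seen, a filter on the 6 other libraries was tried, which called 55 (42 and 13), and a fit without the cell cycle genes, which called 0. Leaving out each library gave 0 to 239 genes, 0 to 104 on the lists and 0 to 135 on none.

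The pairwise comparisons, with 0 calls, gave 104, 658 and 201 genes with DESeq2 against proestrus, metestrus and diestrus, 337, 1478 and 553 with no filter, and 1, 353 and 108 in the joint fit. Leaving out libraries gave 0 to 63, 0 to 374 and 0 to 108. The luminal comparison gave 179, 671 and 21 in the same 3 settings and 0 to 144 with a library left out. The difference between basal and luminal cells gave 18 with DESeq2, 197 with no filter and 0 to 16 with a library left out. The block called 0 in these 5 comparisons. Fits without a library have 1 residual degree of freedom less, and the lone sample of a stage is assumed to vary like the others.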
